A study of Mus musculus with 12 samples.

Results

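The genes described are those whose names mark translation initiation factors: every gene of the table whose symbol starts with Eif and a digit from 1 to 6, leaving out the kinase gene Eif2ak2 and names that hold "-ps" (pseudogenes). The pattern matched 61 rows, 6 were left out by name, and 55 genes remained of 38339 in the table. Of these, 53 reached the level at which genes were tested (at least 1 FPKM in at least 6 of 12 libraries). Eif4e1b, an oocyte-type cap-binding paralog, was at 0 to 0.06 FPKM, and Eif2c5, whose name fits the pattern but whose annotation is a long noncoding RNA, at 0 to 0.04 FPKM, so neither was tested. FPKM are fragments per kilobase of transcript scaled to the number of mapped fragments in a library, so levels of different genes can be set side by side per length.

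The libraries came from 6 mouse leukemias of the T-ALL type (T-lineage acute lymphoblastic leukemia, in which immature T cells grow without control) on a C57BL/6 x 129Sv/Jae F1 background. The leukemias were grown by transplantation, and moribund recipient mice received vehicle (VEH) or dexamethasone (DEX, a synthetic glucocorticoid) 4 hours before being killed. Bone marrow was cleared of red cells by lysis, and total RNA was sequenced with a kit that keeps the strand. Each leukemia gave 1 VEH library and 1 DEX library from separate recipients, so the comparison is paired by leukemia (n = 6). In the numbering used here, 73A-46B is leukemia 1 and 73M-19A leukemia 2. Leukemia 3 is 78A-143B, leukemia 4 is 2M-127B, leukemia 5 is 20M-116B and leukemia 6 is JW-81-59B. With 1 recipient in each arm, the treatment and the recipient cannot be told apart within a leukemia. The title of the series speaks of dexamethasone resistance through a lost glucocorticoid receptor, but the labels mark none of these leukemias as resistant.

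Translation starts when eIF2, carrying GTP and the initiator methionyl tRNA, joins the small ribosomal subunit together with eIF1, eIF1A, eIF3 and eIF5. The eIF4F complex (the cap-binding protein eIF4E, the helicase eIF4A and the scaffold eIF4G) brings this subunit to the capped end of the messenger RNA, and the 4E-binding proteins block that step when the growth kinase mTORC1 is inactive. eIF2B recharges eIF2 with GTP, kinases that phosphorylate eIF2 slow it under stress, and eIF5B joins the large subunit. Many genes of this machinery are known as targets of the growth regulator MYC, and T-ALL cells are known to depend on eIF4A.

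The files gave no counts. An estimate from the value of a single fragment in sparse genes, with an assumed fragment of 150 bp, gave 11700000 to 36300000 fragments in 11 libraries, and the VEH library of leukemia 2 gave no clear estimate. Every one of 12 T-lineage markers was tested, and their summed level was 1799 to 2714 FPKM in VEH and 1635 to 2516 FPKM in DEX. By the test described next, 3 were lower after DEX (25%, beside 9.28% of all genes) and 0 higher. The 12 granulocyte and monocyte markers were present as well, summing to 2285 to 9166 FPKM in VEH and 1484 to 5387 FPKM in DEX, with 2 lower (16.7%) and 0 higher. Their mean log2 difference was -0.63, -1.38, 0.55, -0.02, -0.48 and -1.26 in leukemias 1 to 6. In such bulk samples, fewer cells of a type and less RNA per cell cannot be told apart. Erythroid markers (8 in the table, 5 tested, none passing) summed to 8.66 to 1160 FPKM in VEH and 14.2 to 149 FPKM in DEX. Markers of the B lineage (53.5 to 483 and 48.3 to 137 FPKM) and of stroma and endothelium were listed above 0 as well.

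After 4 hours of DEX, 11 of 53 initiation factor genes had fallen, 0 had risen and 42 did not pass. A gene counts as fallen or risen at an adjusted p under 0.05 in limma, fitted over all 12358 tested genes on log2(FPKM + 1) with the leukemia as a block. In that test 9.28% of all genes were lower and 4.27% higher, against 20.8% and 0% of the initiation factors. At an unadjusted p under 0.05, 20 of 53 initiation factors were lower and 0 higher, beside 20.5% and 9.69% of all genes. The falls touched most steps of initiation: the helicase Eif4a1, the cap-binding genes Eif4e and Eif4e3, the cap-binding inhibitor Eif4ebp1, the scanning factors Eif1a and Eif1b, the eIF2 subunits Eif2s1 and Eif2s2, the eIF2B subunit Eif2b3, the GTPase-activating partner of eIF2, Eif5, and the eIF3 subunit Eif3a. They were small, from -0.28 to -0.54 on the log2 scale. The median over the 53 genes was -0.12, against -0.05 over all genes tested, and 36 of the 53 were below 0, as were 60.3% of all genes. In 13 of 53 genes the difference was below 0 in each of the 6 leukemias, a pattern found in 13.7% of all genes, and in 0 above 0 in each, found in 5.97%. Summed over all 55 genes, the level went from 5239 ± 307 to 4769 ± 423 FPKM (SD, n = 6) and was lower in 6 of 6 leukemias, by 9.01% on average. Such a sum depends on the scaling and follows the most abundant genes. Among them Eif4a1 alone went from 557 to 400 FPKM, while the summed eIF3 level was lower in 3 of 6 leukemias. No matching sum over other genes was taken.

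**Figure D1:**
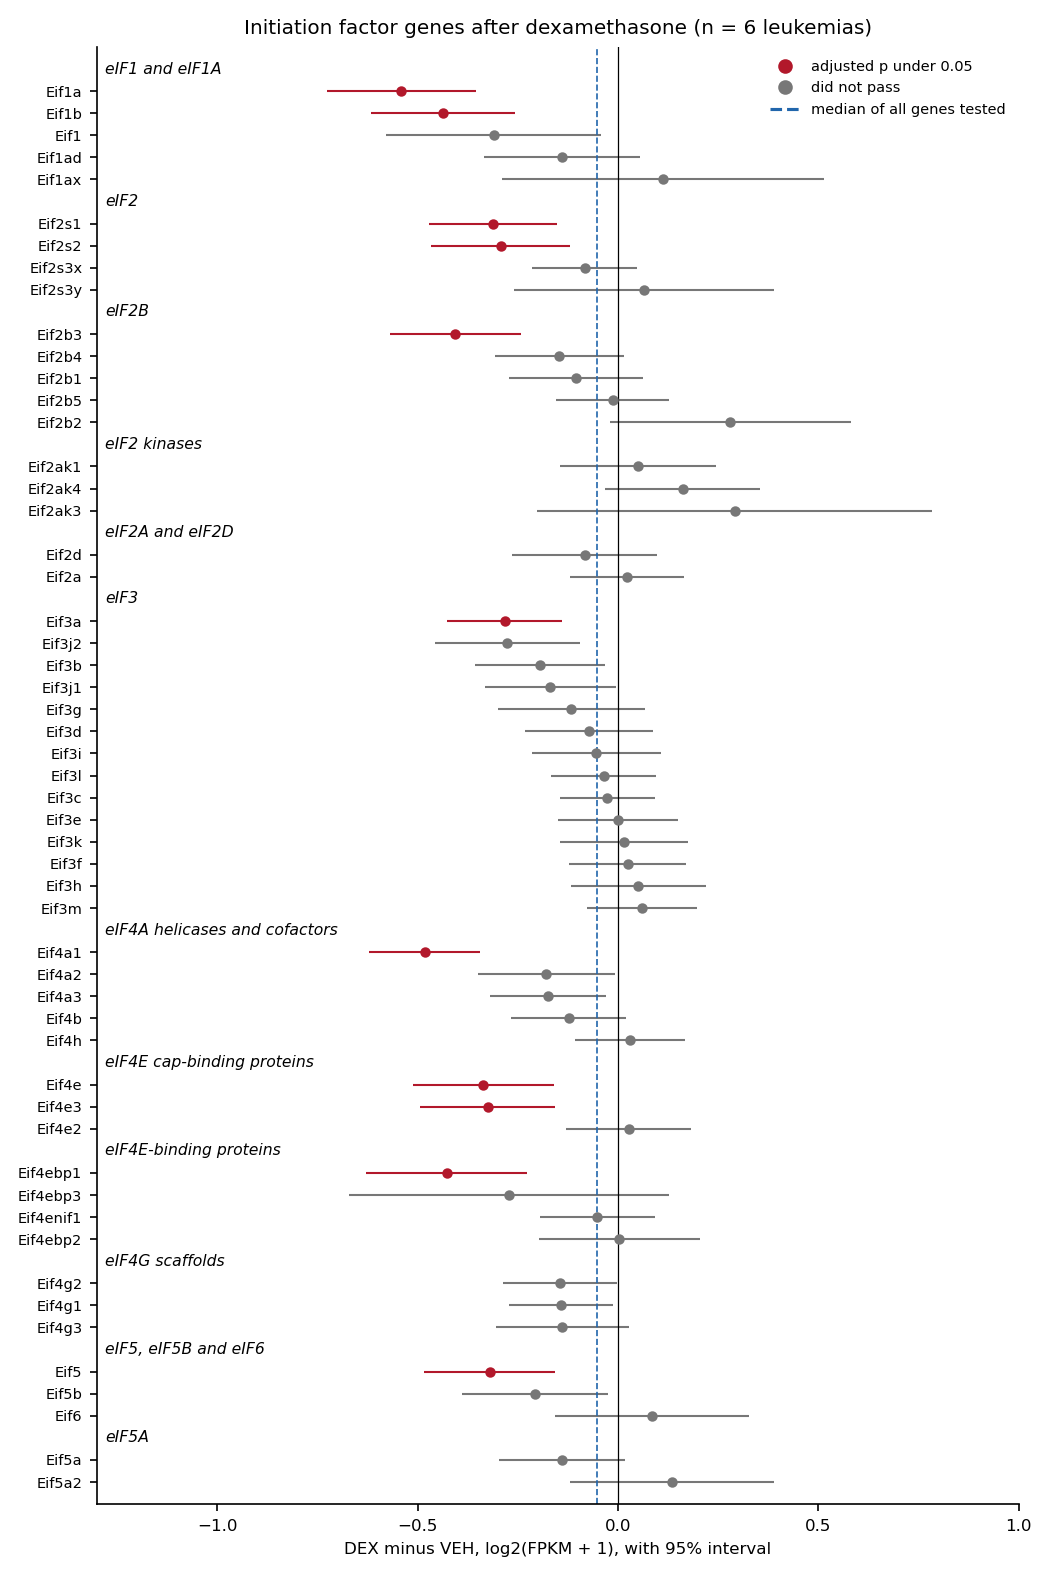
Difference between DEX and VEH (horizontal axis, log2(FPKM + 1)) of each of the 53 tested initiation factor genes, grouped by complex; points are the limma estimates over 6 leukemias, bars their 95% intervals, red points passed the test and the dashed line is the median of all genes tested. All 11 red points lie below 0, between -0.54 (Eif1a) and -0.28 (Eif3a), while most eIF3 subunits lie near the dashed line.

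How many calls were made depended on the scaling and on which leukemias were used. Median-of-ratios scaling gave 9 initiation factors lower (17%, beside 6.39% of all genes). On the TPM scale, on which all libraries have the same sum, 18 were lower (34%, beside 14.9% of all genes). TPM also moved the median of all genes from -0.05 to -0.16, and the initiation factors stood at -0.25 on that scale. Among all changed genes the higher ones made up 31.5%, against 44.7% with median-of-ratios scaling, 43.6% with quantile normalization and 12.7% with TPM, and 0 initiation factors were higher in any of these. Leaving out leukemia 5 left 4 of the 11 calls, or 7.55% of the 53 genes, beside 3.4% of all genes. Leaving out leukemia 1 left 5 (9.43%, beside 3.96%), and the medians of the initiation factors and of all genes were then both -0.06. Leaving out leukemia 2 or 4 left 7 each (13.2%, beside 6.12% and 4.71% of all genes). The descriptions of the DEX libraries of leukemias 2, 5 and 6 lack a number that those of the other libraries hold, and the labels do not say what it marks. Within these pairs it cannot be told apart from the treatment. Within leukemias 1, 3 and 4 alone 3 initiation factors were lower (5.66%, beside 4.21% of all genes). The median of the 53 was -0.11 there, beside -0.02 over all genes. Within leukemias 2, 5 and 6 alone 3 were lower as well (5.66%, beside 2.19% of all genes). Their median of -0.08 was there no lower than that of all genes, -0.09. With a term for the granulocyte and monocyte marker level, 4 were lower: Eif4a1, Eif1a, Eif2b3 and Eif4ebp1. That term took the share of all genes that were lower from 9.28% to 3.82%, and that of the initiation factors from 20.8% to 7.55%. The median of the initiation factors was -0.11 with it and -0.12 without, and that of all genes -0.02 and -0.05. Why the term changed them was not tested. The 7 genes whose call it ended stood at -0.40 (Eif1b), -0.32 (Eif2s2), -0.30 (Eif4e3), -0.27 (Eif3a), -0.26 (Eif2s1), -0.22 (Eif4e) and -0.21 (Eif5), with adjusted p-values of 0.0566 to 0.126. Over leukemias 1, 3, 4 and 5 alone, a set chosen after the data were seen, 10 were lower (18.9%, beside 9.14% of all genes), 9 of them among the 11. The leukemias left out had these markers furthest down. They were also those in which the median of the initiation factors stood above that of all genes. This set therefore cannot tell the marker level apart from other differences between leukemias.

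Eif4a1, which encodes the main RNA helicase of eIF4F, was the most abundant initiation factor gene by its mean over the 12 libraries and had the smallest p of the 53 (ENSMUSG00000059796, GRCm38, chr11:69666936-69672423, minus strand). In DEX alone it came after Eif4g2 (mean of 400 against 425 FPKM). With VEH it stood at 605.18, 488.88, 598.98, 518.03, 532.29 and 598.1 FPKM in leukemias 1 to 6. With DEX it stood at 435.25, 334.99, 451.66, 403.6, 339.46 and 433.67 FPKM. Every DEX library was below every VEH library, which was so for 1.34% of all genes. The mean went from 556.9 ± 50.1 to 399.8 ± 50.9 FPKM (SD, n = 6), a log2 difference of -0.48 ± 0.06 (SE, limma adjusted p = 0.00256). It was lower after DEX in 6 of 6 leukemias, with differences from -0.36 to -0.65. Its call held in 19 of 20 alternative settings. Without the leukemia block the adjusted p was 0.0559.

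The 250 bases before the annotated start of Eif4a1 are shown because its promoter carries the E-box CACGTG, the core sequence bound by MYC and related factors, in capitals (RefSeq, GRCm38.p6, chr11:69672424-69672673, minus strand, 58.8% G and C, no annotated exon).
Eif4a1 upstream region: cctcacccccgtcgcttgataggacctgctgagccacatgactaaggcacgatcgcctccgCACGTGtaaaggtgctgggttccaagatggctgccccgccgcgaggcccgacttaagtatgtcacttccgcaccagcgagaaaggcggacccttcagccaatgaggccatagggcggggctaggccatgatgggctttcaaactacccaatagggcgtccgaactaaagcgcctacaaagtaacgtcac

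The other helicase genes were lower by less, and none passed. Eif4a2, a close paralog of Eif4a1, went from 286.1 ± 28.8 to 252.6 ± 25.7 FPKM (-0.18 ± 0.07, adjusted p = 0.149). Eif4a3, whose product sits in the exon junction complex, went from 100.9 ± 6.29 to 89.5 ± 7.95 FPKM (-0.17 ± 0.06, adjusted p = 0.106) and was lower in 6 of 6 leukemias. Of the helicase cofactors, Eif4b stood at -0.12 (adjusted p = 0.23) and Eif4h at 0.03 (95% interval -0.11 to 0.17). Eif4a1 and Eif4a2 host 3 and 5 small nucleolar RNA genes in their introns, and how the authors' counting treated such reads is not given in the sources used here.

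Of the cap-binding genes, Eif4e and Eif4e3 fell and Eif4e2 did not pass. Eif4e encodes the protein that binds the cap for eIF4F (ENSMUSG00000028156, chr3:138526179-138559696). It had a lowest, median and highest level of 36.05, 40.35 and 50.55 FPKM in VEH and of 27.77, 31.36 and 37.25 FPKM in DEX, so the groups overlapped. Its log2 difference was -0.34 ± 0.08 (SE, n = 6, adjusted p = 0.0242), below 0 in 5 leukemias and 0.04 in leukemia 3. Eif4e3, a paralog that binds the cap in another way, went from 16.2 ± 2.08 to 12.7 ± 1.39 FPKM (-0.33 ± 0.07, adjusted p = 0.0238) and was lower in 6 of 6. Its lowest, median and highest levels were 12.67, 16.58 and 19.11 FPKM in VEH and 10.81, 12.82 and 14.42 FPKM in DEX, with overlap. Eif4e3 shares its locus with the gene model Gm20696 on the same strand, so reads of the pair may have been split. Eif4e2, which encodes a cap-binding protein that represses translation, stood at 50.1 and 51.2 FPKM (0.03, 95% interval -0.13 to 0.18). Both calls were among the less stable ones: that of Eif4e ended without leukemia 1 (-0.32, adjusted p = 0.0769), 2 (-0.31, 0.0599), 4 (-0.33, 0.07), 5 (-0.33, 0.0789) or 6 (-0.32, 0.0501). That of Eif4e3 ended without leukemia 1 (-0.30, adjusted p = 0.0785), 2 (-0.29, 0.0571), 4 (-0.31, 0.0755) or 5 (-0.35, 0.0598).

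Eif4ebp1 was the one 4E-binding protein gene that fell. Its product holds eIF4E away from eIF4G until mTORC1 phosphorylates it (ENSMUSG00000031490, chr8:27260329-27276674). It stood at 16.04, 11.26, 16.46, 11.8, 6.2 and 17.57 FPKM with VEH (leukemias 1 to 6) and at 11.01, 7.93, 11.09, 9.71, 3.44 and 16.11 FPKM with DEX. Leukemias differed more than treatments did, and the groups overlapped, but DEX was below VEH in 6 of 6 pairs (-0.43 ± 0.09, SE, adjusted p = 0.0166). The call ended without leukemia 1 (-0.41, adjusted p = 0.0575) or 5 (-0.37, adjusted p = 0.0595). Eif4ebp2, the more abundant paralog, stood at 28.3 ± 4.49 and 28.4 ± 5.11 FPKM, with a difference of 0.00 (95% interval -0.20 to 0.20). Eif4ebp3 was low, at 1.85 and 1.36 FPKM (-0.27, adjusted p = 0.334), and Eif4enif1, which encodes the shuttling protein 4E-T, stood at -0.05 (adjusted p = 0.615).

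None of the 3 eIF4G scaffold genes passed (2 had an unadjusted limma p under 0.05), and their differences lay close together. Eif4g1, the scaffold of eIF4F, went from 110.3 ± 13.9 to 99.8 ± 11.5 FPKM (-0.14 ± 0.06, adjusted p = 0.132). Eif4g2, whose product lacks the site for eIF4E, was the second most abundant member over the 12 libraries and went from 467 ± 68.3 to 425 ± 72.6 FPKM (-0.14, adjusted p = 0.163). Eif4g3 stood at -0.14 as well (adjusted p = 0.242). Eif4g2 passed with quantile normalization (-0.29, adjusted p = 0.0436), and Eif4g1 with TPM (-0.28, adjusted p = 0.0431).

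**Figure D2:**
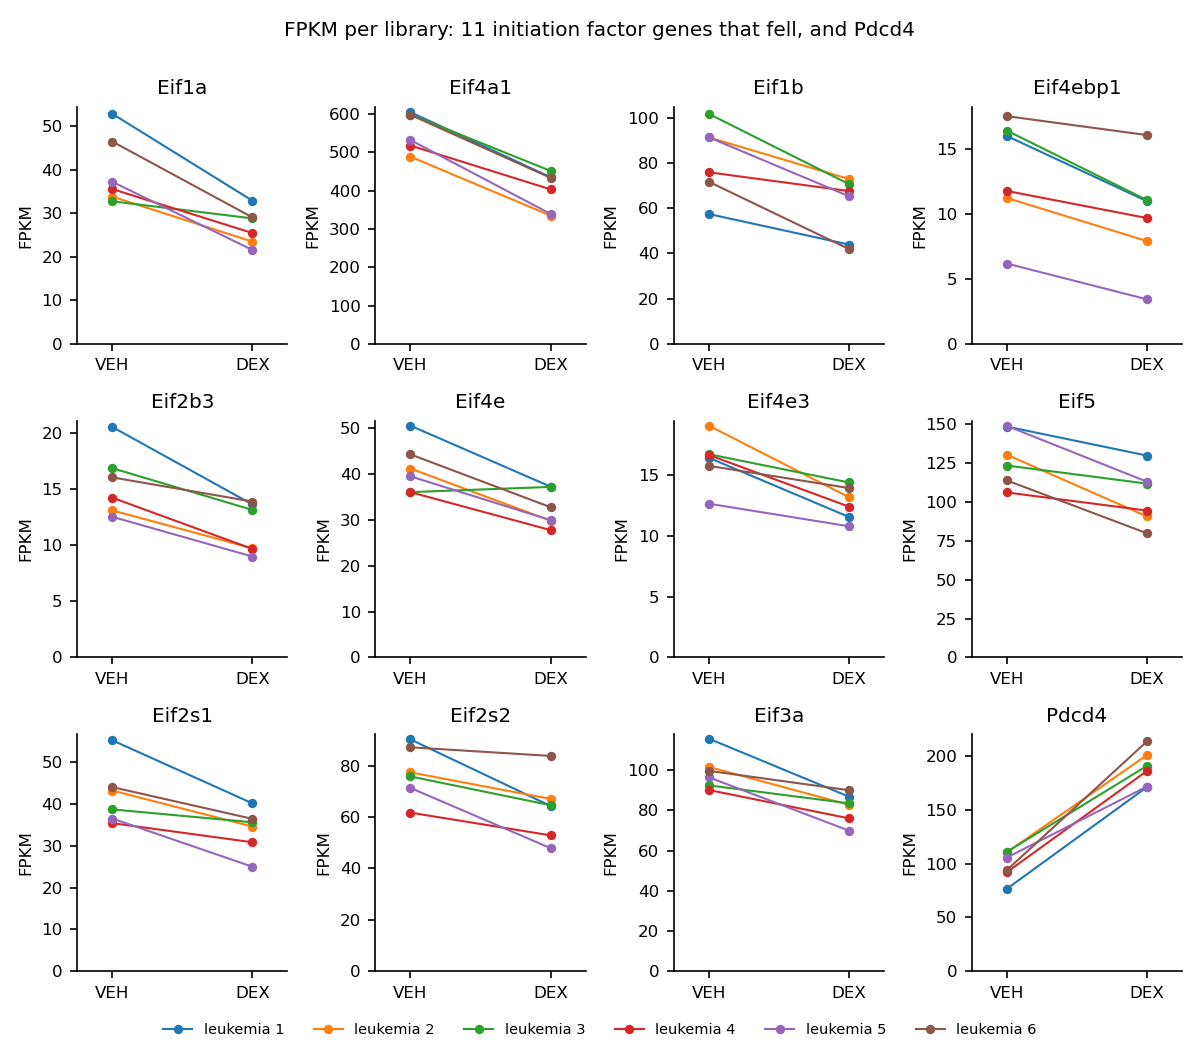
FPKM (vertical axis, from 0) in the VEH and DEX library of each leukemia (coloured lines) for the 11 initiation factor genes that fell and for Pdcd4, an inhibitor of eIF4A that rose. Lines slope down in 6 of 6 leukemias in 10 of the 11 falling genes, with Eif4e in leukemia 3 the exception, and slope up in 6 of 6 for Pdcd4.

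Among the factors that keep the small subunit scanning for a start codon, Eif1a and Eif1b fell, and Eif1, Eif1ax and Eif1ad did not pass. Eif1a, one of the genes for eIF1A, lies on chromosome 18 (ENSMUSG00000057561). It stood at 52.8, 33.79, 32.72, 35.53, 37.2 and 46.44 FPKM in VEH and at 32.86, 23.47, 28.8, 25.44, 21.55 and 29.03 FPKM in DEX. The groups touched at a single point, where the highest DEX level (leukemia 1) just exceeded the lowest VEH level (leukemia 3). Its difference of -0.54 ± 0.08 (SE, n = 6, adjusted p = 0.00547) was the largest fall of the 53. Eif1b, a paralog of Eif1 (ENSMUSG00000006941, chr9:120492232-120495330), went from 81.5 ± 16.2 to 60.4 ± 13.8 FPKM (-0.44 ± 0.08, adjusted p = 0.01), lower in 6 of 6. Its lowest, median and highest levels were 57.41, 83.55 and 101.69 FPKM in VEH and 41.94, 66.42 and 72.89 FPKM in DEX, with overlap. The calls of both held whichever leukemia was left out.

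Eif1, which guards start codon choice and is the most abundant of the group, went from 259.1 ± 30.8 to 210.7 ± 39.0 FPKM (-0.31 ± 0.12, adjusted p = 0.116). It was lower in 5 leukemias and higher by 0.16 in leukemia 3, with its largest drop, -0.90, in leukemia 2. Eif1ax, the X-linked gene for eIF1A, had opposite signs: it was lower in leukemias 1, 3 and 4 (-0.25, -0.37 and -0.31) and higher in leukemias 2, 5 and 6 (0.65, 0.02 and 0.94), for a mean of 0.11 ± 0.18 (adjusted p = 0.703). By sign alone that split matches the 2 sets of leukemias told apart above by the descriptions of their DEX libraries. In leukemia 5, however, Eif1ax hardly changed. How many of all genes share this pattern of signs was not counted, and its source was not tested. Eif1a and Eif1ax are close copies in their coding part, and Eif1 and Eif1b resemble each other, so how reads were divided between them is uncertain. Eif1ad stood at -0.14 (adjusted p = 0.311).

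Of the eIF2 trimer, the alpha and beta subunit genes fell together, and the gamma subunit genes did not pass. Eif2s1 encodes the alpha subunit, whose phosphorylation by stress kinases slows initiation (ENSMUSG00000021116, chr12:78861819-78887010). It had lowest, median and highest levels of 35.44, 41.0 and 55.31 FPKM in VEH and of 24.99, 35.13 and 40.19 FPKM in DEX (-0.31 ± 0.07, SE, n = 6, adjusted p = 0.0224). Eif2s2, the beta subunit, had levels of 61.69, 76.59 and 90.23 FPKM in VEH and of 47.85, 64.44 and 83.8 FPKM in DEX (-0.29 ± 0.08, adjusted p = 0.0378). Both groups overlapped, and both genes were lower in 6 of 6 leukemias, with the largest differences in leukemia 5 (-0.53 and -0.57). The ratio of Eif2s1 to Eif2s2 was 0.546 ± 0.043 in VEH and 0.539 ± 0.065 in DEX (SD). Eif2s3x, the X-linked gamma subunit gene, stood at 93.1 ± 20.8 and 88.1 ± 21.1 FPKM (-0.08, 95% interval -0.21 to 0.05).

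Leaving out single leukemias ended both calls. The call of Eif2s1 ended without leukemia 1 (-0.28, adjusted p = 0.0753) or 5 (-0.27, adjusted p = 0.0774). Eif2s2 kept its call only without leukemia 6, with adjusted p-values of 0.111, 0.0622, 0.0602, 0.079 and 0.114 without leukemias 1 to 5 (differences -0.25, -0.31, -0.31, -0.31 and -0.24). Eif2s2 also lies opposite the coat color gene a, and whether strand was used in counting is not given in the sources used here. In all, 11 of the 55 genes overlap a coding gene on the other strand.

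Eif5, the GTPase-activating partner of eIF2, fell beside these subunits (ENSMUSG00000021282, chr12:111538016-111546752). It stood at 148.62, 130.47, 123.53, 106.2, 149.06 and 113.94 FPKM in VEH and at 129.92, 90.75, 111.89, 94.53, 113.1 and 79.91 FPKM in DEX. The groups overlapped, and the difference was -0.32 ± 0.07 (SE, n = 6, adjusted p = 0.0224), lower in 6 of 6. It ranged from -0.14 in leukemia 3 to -0.52 in leukemia 2, and the call ended without leukemia 2 (-0.28, adjusted p = 0.0554) or 5 (-0.31, adjusted p = 0.0757). Together with Eif4e it moved most of the 11 with the granulocyte and monocyte term, to -0.21 (adjusted p = 0.109), and it was -0.17 (adjusted p = 0.22) over leukemias 1, 3 and 4 alone. Eif5 stood at -0.19, -0.52, -0.14, -0.17, -0.40 and -0.51 in leukemias 1 to 6. The mean marker differences there were -0.63, -1.38, 0.55, -0.02, -0.48 and -1.26. Whether they are linked was not tested.

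In eIF2B, the exchange factor that reloads eIF2 with GTP, Eif2b3 fell and the other 4 subunit genes did not pass. Eif2b3 encodes the gamma subunit (ENSMUSG00000028683, chr4:117019402-117087306). Its lowest, median and highest levels were 12.52, 15.13 and 20.52 FPKM in VEH and 8.98, 11.43 and 13.88 FPKM in DEX, with overlap. The difference was -0.41 ± 0.07 (SE, n = 6, adjusted p = 0.00934), lower in 6 of 6, and the call held whichever leukemia was left out. Eif2b1 stood at -0.10 (adjusted p = 0.377), Eif2b4 at -0.15 (adjusted p = 0.204) and Eif2b5, the catalytic subunit, at -0.01 (95% interval -0.15 to 0.13). Eif2b2 pointed the other way, at 0.28 ± 0.13 (adjusted p = 0.193), with most of it in leukemia 2 (22.94 to 48.42 FPKM). The summed level of the 5 genes was 108.1 ± 13.1 and 106.4 ± 11.2 FPKM, lower in 5 of 6 leukemias.

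None of the 3 tested eIF2 kinase genes passed, also at an unadjusted limma p under 0.05, and their median was 0.16. Eif2ak1, the heme-sensing kinase, stood at 12.2 ± 1.61 and 12.7 ± 1.98 FPKM (0.05, adjusted p = 0.731). Eif2ak4, which encodes GCN2, the kinase that senses amino acid shortage, went from 5.87 to 6.75 FPKM (0.16, 95% interval -0.03 to 0.36, adjusted p = 0.238). Eif2ak3, which encodes the endoplasmic reticulum stress kinase PERK, stood at 9.85 to 24.85 FPKM in VEH and at 11.77 to 16.28 FPKM in 5 DEX libraries, but at 75.47 FPKM in the DEX library of leukemia 6 (0.29 ± 0.22, adjusted p = 0.40). A small nucleolar RNA model within Eif2ak3, Gm23346, was at 0 in all libraries except the DEX libraries of leukemias 2, 5 and 6 (18.84, 43.85 and 47.09 FPKM). Eif2a and Eif2d, whose products can bring a tRNA to the ribosome without eIF2, stood at 0.02 and -0.08 (adjusted p = 0.836 and 0.516).

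eIF3, the largest factor and the platform on which the others assemble, had 1 of 14 tested genes lower (7.14%, beside 9.28% of all genes) and 0 higher, with a median of -0.04. At an unadjusted p under 0.05, 4 of the 14 were lower and 0 higher, where 20.5% and 9.69% of all genes were. Eif3a, the largest subunit of its core, was the one that fell (ENSMUSG00000024991, chr19:60761117-60790658, minus strand). It stood at 115.78, 101.67, 92.48, 90.17, 96.54 and 99.72 FPKM in VEH and at 86.88, 82.79, 83.56, 76.05, 69.95 and 90.06 FPKM in DEX. The groups did not overlap, but the highest DEX and the lowest VEH library were only just apart. The difference was -0.28 ± 0.06 (SE, n = 6, adjusted p = 0.0222). Its call ended without leukemia 1 (-0.26, adjusted p = 0.0746), 4 (-0.29, 0.0592) or 5 (-0.25, 0.0784), and with median-of-ratios scaling (-0.23, adjusted p = 0.0626).

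The rest of eIF3 did not pass. Eif3b, which binds Eif3a in the core, stood at -0.19 (adjusted p = 0.106) and passed with TPM (-0.33, adjusted p = 0.0212) and over leukemias 1, 3, 4 and 5 alone (-0.29, adjusted p = 0.0222). Eif3c, another core subunit, stood at 101.2 ± 7.26 and 99.5 ± 9.04 FPKM (-0.03, 95% interval -0.14 to 0.09). The loosely bound subunit j has a pair of genes in the mouse, Eif3j1 (-0.17, adjusted p = 0.156) and Eif3j2 (-0.28, adjusted p = 0.053). Each was lower in 6 of 6 leukemias, and reads of these near-identical copies may have been divided either way. Eif3e, the most abundant subunit gene, stood at 265.5 ± 36.4 and 268.9 ± 57.2 FPKM (0.00, 95% interval -0.15 to 0.15). Its pseudogene Eif3s6-ps2, left out by name, was listed at 21.01 to 105.8 FPKM, and how reads were shared between them is not known. Eif3d (-0.07), Eif3g (-0.12), Eif3i (-0.05) and Eif3l (-0.04) were below 0, and Eif3f (0.02), Eif3h (0.05), Eif3k (0.01) and Eif3m (0.06) above, with adjusted p-values of 0.37 to 0.906. The summed eIF3 level was 1726 ± 193 and 1701 ± 272 FPKM and was lower in 3 of 6 leukemias. With median-of-ratios scaling the eIF3 median was 0.01, beside -0.01 over all genes. With TPM it was -0.18, beside -0.16 over all genes. The eIF3 median thus stayed near that of all genes on each scale.

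The late factors gave no call besides Eif5. Eif5b, the GTPase that joins the ribosomal subunits, went from 11.3 ± 2.30 to 9.72 ± 2.20 FPKM (-0.21, adjusted p = 0.123) and was lower in 5 leukemias. Eif6, which keeps large subunits apart until they are ready, stood at 40.6 and 43.1 FPKM (0.08, adjusted p = 0.627). Eif5a, the hypusine-carrying factor that also helps peptide bonds form during elongation, was the third most abundant member, at 418.7 ± 73.0 and 380.1 ± 63.1 FPKM (-0.14 ± 0.07, adjusted p = 0.212). It passed with TPM (-0.28, adjusted p = 0.0453) and with quantile normalization (-0.24, adjusted p = 0.0302). Its paralog Eif5a2 was at 1.73 and 2.01 FPKM (0.13, adjusted p = 0.453).

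**Figure D3:**
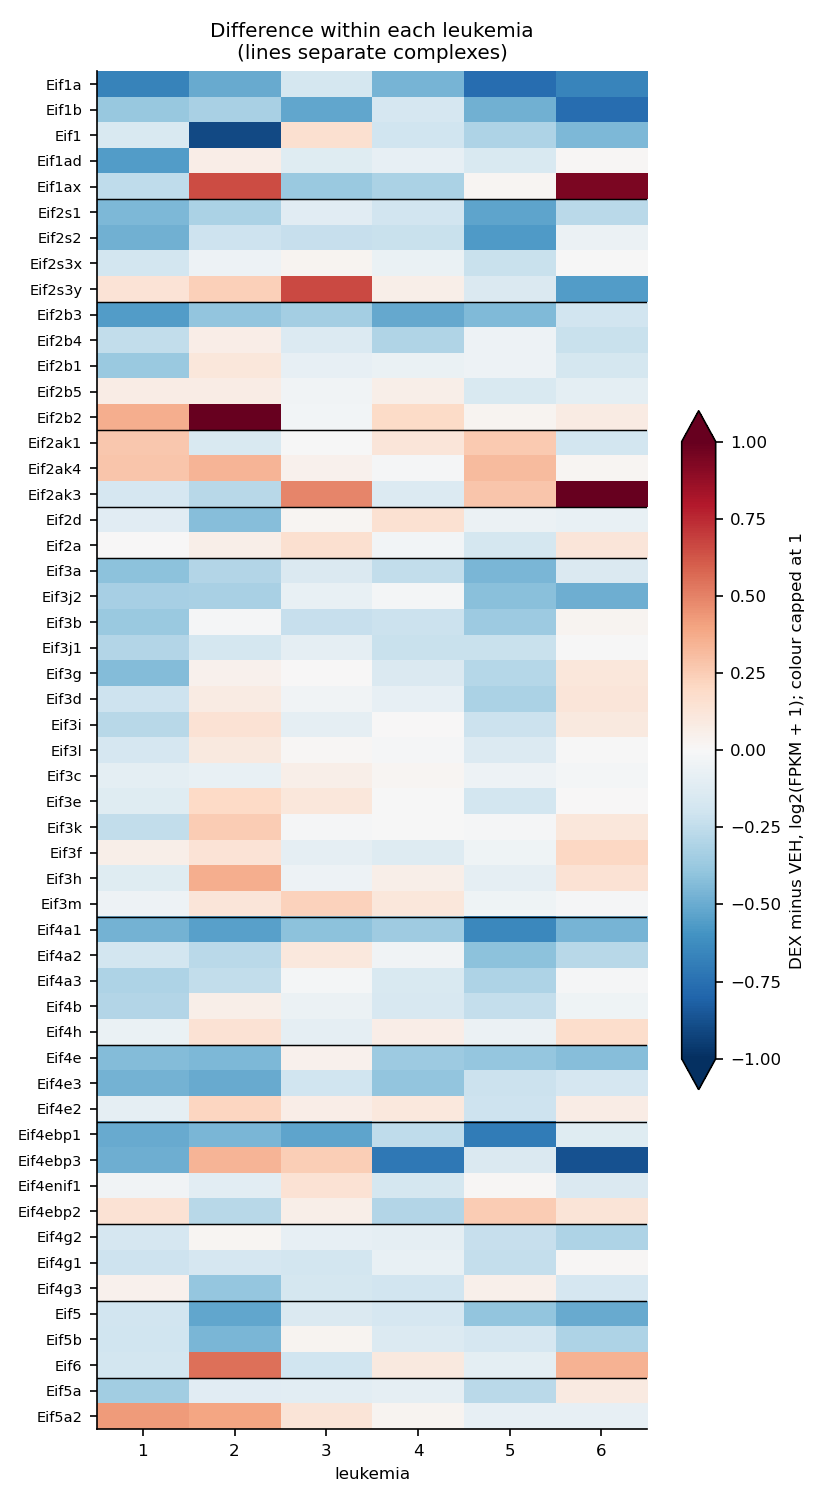
DEX minus VEH on the log2(FPKM + 1) scale (colour, capped at 1 in either direction) for each of the 53 tested genes (vertical axis, lines separate complexes) in each leukemia (horizontal axis). Blue rows across all 6 columns mark genes lower throughout, such as Eif4a1 and Eif1a, and the eIF3 block is bluer in leukemias 1 and 5 than in leukemias 2 and 6.

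Leukemias 1 and 5 had the lowest medians, though single genes could be lowest elsewhere, such as Eif1 in leukemia 2 (-0.90). The median over the 53 genes was -0.20, -0.05, -0.05, -0.09, -0.18 and -0.05 in leukemias 1 to 6, beside medians over all genes of -0.03, -0.12, -0.02, -0.01, -0.03 and -0.09. In leukemias 2 and 6 the initiation factors therefore stood above the median of all genes, and in the other 4 below it. The eIF3 median was -0.23 in leukemia 1 and -0.20 in leukemia 5, but 0.09 in leukemia 2 and 0.01 in leukemia 6. Whether the response differed between leukemias could not be tested, since each has 1 library per arm.

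Ratios between paralogs and partners within a library do not depend on the scaling of that library, and their changes were taken on the log2(FPKM + 1) scale. Over 12 such ratios, 4 had one sign in 6 of 6 leukemias, which gave an exact two-sided sign-flip p of 0.03125 each, the smallest that 6 pairs allow, and 0.0938 after Benjamini-Hochberg adjustment. None therefore passed the adjustment. Eif4a1 stood at 1.96 ± 0.21 times Eif4a2 in VEH and 1.58 ± 0.14 times in DEX (SD, n = 6), a log2 change of -0.30 ± 0.11. Against Eif4a3 it stood at 5.53 ± 0.53 and 4.46 ± 0.29 times (-0.31 ± 0.11). Eif4e stood at 0.847 ± 0.183 times its repressive paralog Eif4e2 in VEH and 0.655 ± 0.138 times in DEX (-0.36 ± 0.23). The binding-protein gene Eif4ebp2 went from 0.693 ± 0.131 to 0.879 ± 0.153 times Eif4e (0.34 ± 0.28), while Eif4ebp1, which fell with Eif4e, stood at 0.321 and 0.303 times (-0.09 ± 0.31, exact p = 0.531). The change of Eif4ebp1 to Eif4ebp2 was -0.43 ± 0.36 (exact p = 0.0625, adjusted 0.15). The ratios of the eIF4G scaffolds, of Eif1 to Eif1b, of Eif2s1 to Eif2s2 and of Eif5 to Eif2s2 had exact p-values of 0.5 to 0.969, and Eif5a to Eif5a2 gave 0.0938.

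**Figure D4:**
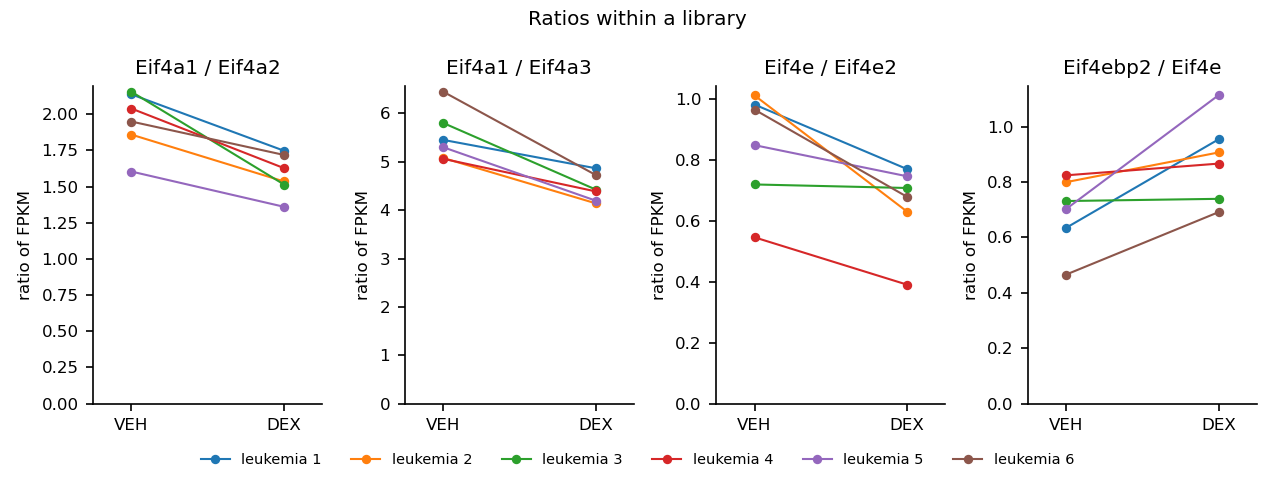
Ratio of FPKM within a library (vertical axis, from 0) in the VEH and DEX library of each leukemia (coloured lines) for Eif4a1 to Eif4a2, Eif4a1 to Eif4a3, Eif4e to Eif4e2 and Eif4ebp2 to Eif4e. The first 3 ratios are lower with DEX in 6 of 6 leukemias, and the fourth is higher in 6 of 6.

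The levels differed widely within the machinery, with 17 genes at a mean of at least 100 FPKM and 4 under 5. They also differed between leukemias: 32 of 53 genes passed limma's F test for a difference between leukemias (adjusted p under 0.05), where 51.1% of all genes passed. Eif2s3y, the Y-linked gamma subunit gene of eIF2, had the widest range, with a VEH and DEX mean of 74.0 FPKM in leukemia 2 and of 1.07 to 5.58 FPKM in the others (adjusted p = 6.3e-06). Eif2s3x, its X-linked counterpart, was instead lowest in leukemia 2, at 63.6 FPKM, and highest in leukemia 6, at 123.6 FPKM (adjusted p = 0.00108). Eif5a2 stood at 4.75 FPKM in leukemia 5 and 0.07 FPKM in leukemia 4 (adjusted p = 0.000129), while Eif5a was at least 267.58 FPKM in every library. Eif4ebp1 was lowest in leukemia 5, at 4.82 FPKM, and highest in leukemia 6, at 16.8 FPKM (adjusted p = 0.000461), a wider span than its fall after DEX. Of the 14 eIF3 genes, 11 differed between leukemias. The F test counts both libraries of a leukemia as replicates although they had different treatments and recipients.

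**Figure D5:**
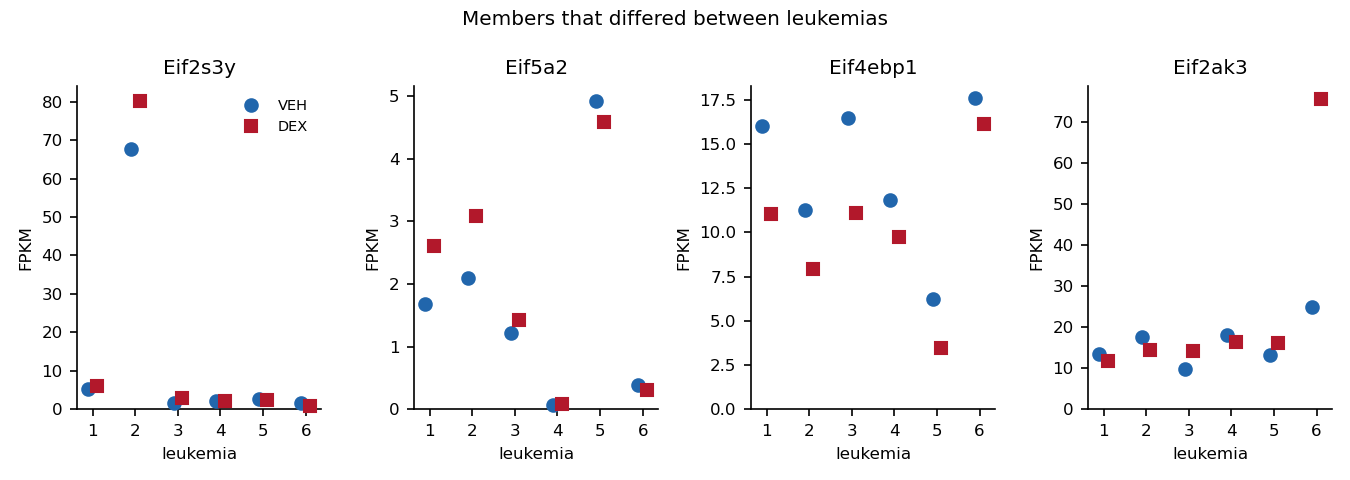
FPKM (vertical axis, from 0) of Eif2s3y, Eif5a2, Eif4ebp1 and Eif2ak3 in the VEH (blue circles) and DEX (red squares) library of each leukemia (horizontal axis). The pair of libraries of a leukemia lies close together for Eif2s3y and Eif5a2, and the DEX library of leukemia 6 stands alone for Eif2ak3 at 75.47 FPKM.

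Among the genes that fell, the E-box seen before Eif4a1 was found near the start of others. RefSeq windows (GRCm38.p6, from 250 bases before to 50 bases after the start) were found for 42 of the 53 tested genes, and CACGTG, which reads the same on both strands, was in 10 of them (23.8%). It was in 4 of the 7 fallen genes with a window (57.1%) and in 6 of the 35 others (17.1%), beside 12% of 8753 tested genes and 7.15% of 32851 windows of the same length. For comparison it was in 15.6% of all genes that were lower and in 9.34% of all that were higher. For Eif4e and Eif3a the last 20 bases of the window with the motif do not all lie in a GENCODE transcript of the gene. The Eif4e window has its start 1089 bases into the annotated gene, and that of Eif3a 35 bases before the annotated gene start. The Eif3a window still reaches past the annotated gene start. Over windows whose last 20 bases do lie in a transcript, the motif was in 2 of 6 fallen genes (33.3%) and in 6 of 35 others. These counts are small and describe letters in a window, not binding. The sequences around the motif are shown for the 4 fallen genes, then for a pair of eIF3 genes that carry it and stood at 0.01 and 0.02.
Eif4a1 (chr11:69672595-69672624, minus strand): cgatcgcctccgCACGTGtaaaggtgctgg
Eif1b (chr9:120492570-120492599, plus strand): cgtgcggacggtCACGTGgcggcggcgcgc
Eif4e (chr3:138527192-138527221, plus strand, before a second, internal start): ggacacgtccgtCACGTGggcaggagccgg
Eif3a (chr19:60790654-60790683, minus strand, after a RefSeq start that precedes the GENCODE gene): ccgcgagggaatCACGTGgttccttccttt
Eif3k (chr7:28981915-28981944, minus strand): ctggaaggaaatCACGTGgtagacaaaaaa
Eif3f (chr7:108934335-108934364, plus strand): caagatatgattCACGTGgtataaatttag
AGAACA followed by 3 bases and TGT, a form of the glucocorticoid response element, was searched on both strands and was in 0 of the 42 windows, and in 0.331% of the tested genes. That says only that these letters are not in these windows.

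Among 26 tested partners and regulators of initiation, 1 rose (3.85%), 2 fell (7.69%) and 23 did not pass, with a median of -0.09. These shares are no higher than those of all genes, 4.27% higher and 9.28% lower. Pdcd4, which encodes an inhibitor that binds eIF4A and blocks its helicase activity, rose. Its lowest, median and highest levels were 76.44, 99.7 and 110.87 FPKM in VEH and 171.21, 188.6 and 213.77 FPKM in DEX. Every DEX library was above every VEH library, which was so for 0.388% of all genes. The mean went from 98.2 ± 13.4 to 189 ± 16.6 FPKM (SD, n = 6), a difference of 0.95 ± 0.08 (SE, adjusted p = 0.000526), and the call held in 20 of 20 alternative settings. Ppp1r15b, a constitutive subunit of the phosphatase that restores eIF2, fell from 42.6 to 35.0 FPKM (-0.28, adjusted p = 0.0179), which did not pass without leukemia 4 (-0.29, adjusted p = 0.051) or 5 (-0.27, adjusted p = 0.0672). Dhx29, a helicase for structured leaders, fell from 13.0 to 10.2 FPKM (-0.32, adjusted p = 0.0493), but its call ended in 16 of 20 settings, with adjusted p-values of 0.138, 0.10, 0.10, 0.146 and 0.0769 without leukemias 1, 2, 4, 5 and 6. Larp1, which binds messenger RNAs of the translation machinery, did not pass (-0.25, adjusted p = 0.0829), except without leukemia 6 (-0.32, adjusted p = 0.0255).

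Among 14 tested genes of elongation and termination factors and proteins around them, 0 rose, 4 fell (28.6%, beside 9.28% of all genes) and 10 did not pass. Their median was -0.20. The genes of the elongation factors eEF1 and eEF2 did not pass: Eef1a1 (0.01), Eef1b2 (-0.04), Eef1d (-0.13), Eef1g (-0.16) and Eef2 (0.05). Neither did the release factor genes Etf1 (-0.25) and Gspt1 (-0.22). At an unadjusted p under 0.05, 0 were higher and 9 lower, where 9.69% and 20.5% of all genes were. Eef1e1, which encodes a scaffold protein of the tRNA synthetase complex, had the largest fall, from 31.5 ± 5.51 to 16.0 ± 3.12 FPKM (-0.94 ± 0.08, adjusted p = 0.000502), and it held in 20 of 20 settings. Eef2k, the kinase that switches off the elongation factor eEF2, fell from 18.8 to 11.3 FPKM (-0.71, adjusted p = 0.0074), lower in 6 of 6 leukemias. Abce1, the factor that splits ribosomes for a new round of initiation, fell from 64.3 to 47.9 FPKM (-0.42, adjusted p = 0.0172), which did not pass without leukemia 1 (-0.40, adjusted p = 0.0587) or 5 (-0.37, adjusted p = 0.0606). Tsfm, a mitochondrial elongation factor, fell from 15.8 to 12.8 FPKM (-0.29, adjusted p = 0.0421), a call that ended whichever leukemia was left out (adjusted p = 0.0621 to 0.101).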

How the data were processed

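RNA levels of 12 libraries (6 VEH, 6 DEX) were analysed. Values are FPKM as the authors deposited them. The submitters' processing notes name edgeR, RSEM, Bowtie2 (version 2) and the build mm10 but not what each did, and the annotation and any filter are not given in the sources used here. FPKM carry no counts, so no count test was run. Groups came from the treatment label, and pairs from the leukemia code in the titles. After removal of group means, both libraries of a leukemia correlated at 0.551 to 0.817 across genes, and those of 2 leukemias at 0.205 or less.

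Genes with FPKM of at least 1 in at least 6 libraries (12358) were analysed as log2(FPKM + 1) in limma 3.58.1 (R 4.3.3), with leukemia and treatment terms and eBayes with trend, two-sided, Benjamini-Hochberg adjustment over all 12358 genes and a threshold of 0.05. All adjusted p-values of single genes are from limma. Errors are SD of FPKM and of ratios, and SE of log2 differences. A difference on this scale understates the fold of low genes. The script was tested on simulated data. Within-library ratios were tested by exact sign flips over 6 pairs. Coordinates came from GENCODE M21 (GRCm38, the assembly of mm10), which matched 37607 of 38339 genes and all 55 members.

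Named were all members past the threshold, the first of each complex, and up to 4 of each partner list with the smallest p. Other members were named to account for the whole set. Genes of eEF1, eEF2 and the release factors were named beside the 4 that fell in their list. Members, lists and tests were chosen with earlier results of these data known. Alternatives were scaling, pseudocount, filter, variance model, no block, subsets of leukemias and a marker term. Replicates are leukemias with 1 recipient per arm.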

Additional observations from a re-analysis of the deposited data

Results flagged for a closer look

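Of 106 groups of 6 libraries (53 genes in VEH and in DEX), 5 held a library far from the other 5 by Dixon's test, and chance alone flags about 1 group in 20. Eif2s3y was far above the others in leukemia 2 in both arms, at 67.81 FPKM in VEH against 1.47 to 5.28 FPKM, and at 80.13 FPKM in DEX against 0.68 to 5.89 FPKM. Eif2ak3 stood at 75.47 FPKM in the DEX library of leukemia 6 against 11.77 to 16.28 FPKM. Eif3k stood at 279.36 FPKM in the same library against 172.09 to 210.39 FPKM, and Eif2b2 at 33.72 FPKM in the VEH library of leukemia 3 against 22.53 to 26.61 FPKM.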

How the results depend on the processing

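No called difference changed its sign in any of 20 alternative settings, and 0 initiation factors were higher in each of them. Among the 11 that fell, the call was lost in 1 setting for Eif4a1, in 2 for Eif1a and Eif2b3, in 4 for Eif1b, in 5 for Eif4ebp1, in 7 for Eif2s1 and Eif5, in 9 for Eif3a and Eif4e3, in 11 for Eif4e and in 12 for Eif2s2. Counts are given as all genes higher, all genes lower and initiation factors lower, against 528, 1147 and 11. Without the replicate block, so with libraries not paired, they were 35, 46 and 0. At an unadjusted p under 0.05, 12 initiation factors were lower in that setting. The share of all genes there was not taken, so that count cannot be set against it. They were 268, 1844 and 18 with TPM (member median -0.25), and 181, 370 and 4 with no filter. The granulocyte and monocyte term gave 279, 472 and 4, and leukemias 2, 5 and 6 alone 270, 275 and 3. Over leukemias 1, 3 and 4 alone, 525 genes and 3 initiation factors were lower. Leaving out each leukemia in turn gave 234 to 537, 420 to 1035 and 4 to 10. Initiation factors differing between leukemias were 32, 21 in leukemias 1, 3 and 4 and 14 in leukemias 2, 5 and 6, where fewer samples entered. The share of all genes that differed was not taken within these subsets. The cause of the other changes was not tested. Depth was not given, so a low gene such as Eif4ebp3 has no counting error here.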
